A study of Glycine max with 12 samples.

Results

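Glyma.01G142400 is the soybean gene that the deposited table describes as ruBisCO-associated protein, and it was examined here with the 9 other genes that carry the same words in their description. These 10 genes were found among 46446 in the table. Glyma.01G142400 was chosen by its FPKM differences between the groups in these same 12 libraries, so its levels and differences are given as a description without a test. The identifiers place it on chromosome 1, 5 of the others on chromosome 3 and 1 each on chromosomes 13 and 15, while 2 (Glyma.U031104 and Glyma.U031204) carry no chromosome number. The identifiers carry the suffix of the Wm82.a4.v1 gene set.

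The protein was first described in soybean leaves, where it comes down in a complex with RuBisCO (the enzyme that fixes carbon dioxide) and accumulates when developing pods are removed. In sequence it is related to chitinases and to narbonin, a seed globulin of vetch, and no catalytic role in carbon fixation is known for it. In the same species, removal of pods also makes leaves accumulate vegetative storage proteins, which hold nitrogen, and certain lipoxygenases. All 10 genes carried the gene ontology term for chitinase activity in the deposited table, a transferred annotation that says nothing about activity of these proteins.

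The leaves came from the cultivar HN95, labelled WT in every library, grown in pots of 20 kg soil and given 3 L of a saline-alkali solution with NaCl and Na2CO3 at 40 mM and NaHCO3 and Na2SO4 at 320 mM. The 4 groups were the stressed control, plants sprayed with 200 mg/L nano-SiO2 (silica nanoparticles), plants sprayed with 300 µM melatonin (MT), and plants sprayed with both (nano-SiO2+MT), each with 3 libraries taken 7 days after spraying. All 4 groups share the salt treatment, so no level here refers to unstressed leaves, and the labels used here do not say what the control plants were sprayed with or how old the plants were. Separate plants or pots are not named for the replicates, so p-values measure only the spread between these libraries, which may be partly technical.

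Summed FPKM (fragments scaled by transcript length and by library size) lay between 522120 and 559092 per library, and relative sequencing depth between 0.85 and 1.27 around the mean of the libraries. Markers of leaf mesophyll, 39 genes with 35 past the filter on low values, summed to between 32474 and 82334 FPKM. The 6 seed genes stayed at or below 0.254 FPKM in sum, and the root and nodule words found 2 leghemoglobin reductases and 30 nodulin-type genes but no leghemoglobin. In each group 1 library lay farthest from the others on the first principal component, namely control 1, nano-SiO2 2, MT 3 and nano-SiO2+MT 3. List results that change without these 4 libraries are given both ways.

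Glyma.01G142400 was at its lowest in stressed control leaves and at its highest after nano-SiO2 alone. It stood at 4.43, 6.38 and 6.38 FPKM in control libraries 1, 2 and 3. After nano-SiO2 it stood at 115, 122 and 85.1 FPKM. With MT the values were 36.7, 28.1 and 30.8 FPKM. With both sprays they were 48.1, 30.2 and 42.0 FPKM. As these are whole leaves, fewer cells with the transcript and less transcript per cell cannot be told apart. Every sprayed library lay above every control library, and every nano-SiO2 library lay above every MT and nano-SiO2+MT library.

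**Figure D1:**
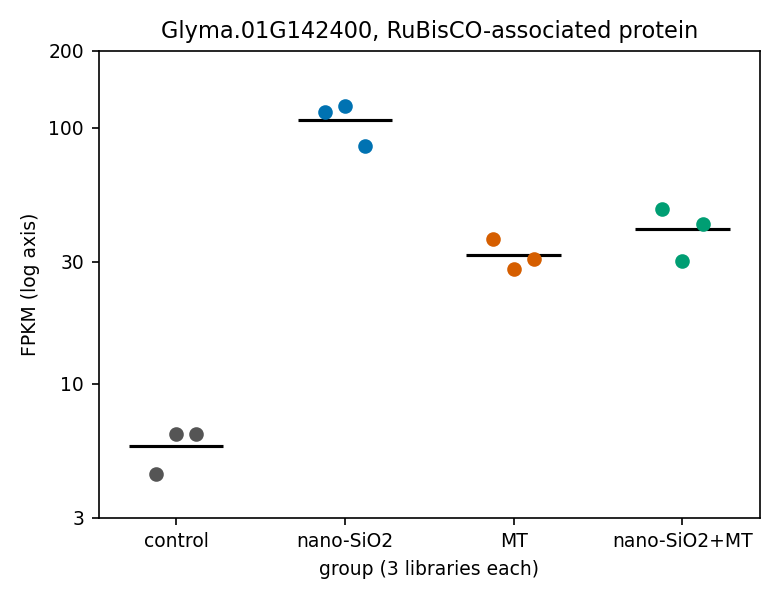
Level of Glyma.01G142400 in FPKM on a log axis (vertical) in the 4 groups (horizontal). Points are single libraries and bars are group means. The 3 control libraries lie between 4.43 and 6.38 FPKM, the nano-SiO2 libraries between 85.1 and 122, and the MT and combined libraries overlap in between.

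In group means the order was control (5.73 ± 1.12 FPKM, SD, n = 3), MT (31.9 ± 4.41), nano-SiO2+MT (40.1 ± 9.11) and nano-SiO2 (107 ± 19.6). The neighbours MT and nano-SiO2+MT overlap. Their ranges, 28.1 to 36.7 and 30.2 to 48.1 FPKM, cross from 30.2 to 36.7, and their means differ by 0.30 on the log2(FPKM + 1) scale (0.16 to 0.49 leaving out 1 library), close to the pooled SD within groups of 0.27. Between libraries of the same replicate number, the combined library was the higher in 3 of 3 pairs, but the labels give no pairing. The other steps in this order were free of overlap. The lowest library with MT or both sprays was 4.4-fold above the highest control, and the lowest nano-SiO2 library was 1.77-fold above the highest library with MT or both sprays. Within groups the coefficient of variation of FPKM ran from 13.8% (MT) to 22.7% (nano-SiO2+MT).

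Against control, the mean FPKM was 18.7-fold higher with nano-SiO2, 5.56-fold with MT and 6.99-fold with both sprays. These 3 comparisons share the control libraries and are not independent of each other. On the log2(FPKM + 1) scale the differences were 4.01, 2.29 and 2.6. Among 28260 tested genes these rank as the 4th, 20th and 6th largest rises, a rank that follows from how the gene was chosen. All 3 differences moved by less than the spread within groups when the 4 libraries that stand apart were left out (3.76, 2.17 and 2.41).

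The rise with both sprays was smaller than the rises with the single sprays added together. Relative to control the mean was 102 FPKM higher with nano-SiO2, 26.1 FPKM higher with MT and 34.3 FPKM higher with both. The combined rise was thus 26.9% of the sum of the single rises, 128 FPKM. On the log2 scale the single rises sum to 6.30, against 2.6 observed. In the absence of nano-SiO2, MT went with a higher level (2.29), and in its presence with a lower level (-1.41). The difference between these effects was -3.70, and it lay between -3.86 and -3.52 when any 1 library was left out.

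The change in level moved the transcript far through the abundance order of the leaf. In the control libraries it ranked 12040th to 14061st among all genes, above 69.7% to 74.1% of them. In the nano-SiO2 libraries it ranked 552nd to 754th, above 98.4% to 98.8%. In the MT and nano-SiO2+MT libraries 94.2% to 96.9% of genes lay below it. Its share of summed FPKM stayed small throughout, at most 0.0229% in nano-SiO2 2.

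The 9 other genes of the same description contributed little in any group. Of their 108 values 67 were listed at 0, and none of the 9 reached the filter for testing (at least 1 FPKM in at least 3 libraries). Glyma.01G142400 held 87.7% to 95.8% of the FPKM of all 10 genes in control libraries and 97.1% to 99.6% in sprayed ones. Reads from close copies could have been assigned to any of them, which makes the low values of this family uncertain.

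Glyma.15G043300 was the most abundant of these 9 and the only other one above 0 in every library. Its control libraries stood at 0.192, 0.598 and 0.693 FPKM and its nano-SiO2 libraries at 0.350, 0.579 and 1.72 FPKM. With MT it was at 0.268, 0.106 and 0.140 FPKM, and with both sprays at 0.121, 0.575 and 0.670 FPKM. The MT and nano-SiO2 libraries were free of overlap and all other pairs of groups overlapped, and the 1 value above 1 FPKM belongs to nano-SiO2 3. Glyma.13G330900, on chromosome 13, ranged from 0 to 0.355 FPKM and was above 0 in 9 libraries spread over all 4 groups.

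The 5 genes on chromosome 3 have close identifier numbers, from Glyma.03G024400 to Glyma.03G025200, and were all listed at 0 in the 3 control libraries. Glyma.03G025200 was at 0.0326, 0.0493 and 0.439 FPKM with nano-SiO2. It was at 0.0845, 0.0471 and 0.0948 FPKM with MT. With both sprays it was listed at 0 once and at 0.0303 and 0.0311 FPKM otherwise. It was thus above 0 in 8 of 9 sprayed libraries, and without read numbers a missed detection and a lower level cannot be told apart here. Glyma.03G024500, Glyma.03G024566 and Glyma.03G025000 never passed 0.0257 FPKM.

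Glyma.03G024400, Glyma.U031104 and Glyma.U031204 were each above 0 in 1 and the same library, MT 2, with 0.0271, 0.0305 and 0.0305 FPKM. Nano-SiO2 3 was the highest library for 6 of the 9 genes, while for Glyma.01G142400 it was the lowest of its group. With no filter on low values, 0 of the 9 were called by limma with any spray against control, and 1 of the 9 had an unadjusted p under 0.05 with nano-SiO2. In that fit 0.203% of all genes were called with nano-SiO2, 1.62% with MT and 0.521% with both sprays, so a count of 0 among 9 is near the background.

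**Figure D2:**
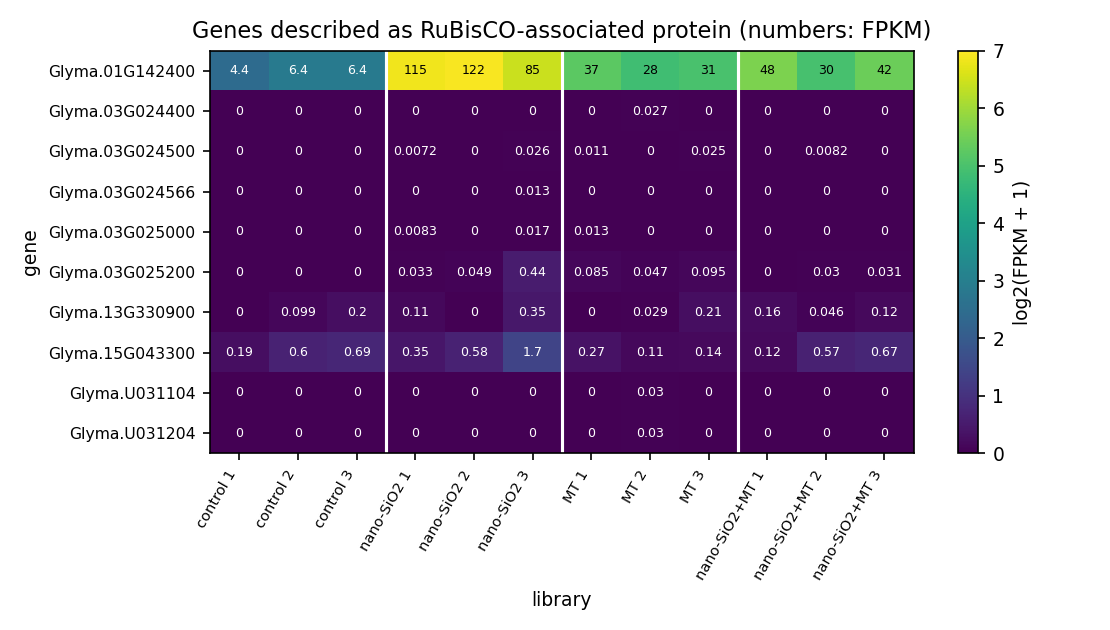
The 10 genes described as RuBisCO-associated protein (rows) in the 12 libraries (columns), coloured by log2(FPKM + 1) and labelled with the FPKM. Only the row of Glyma.01G142400 exceeds 1.72 FPKM, and 67 of the other 108 values are 0.

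RuBisCO itself is built from a large chain and small chains, and the nuclear small chain genes were compared because of the complex the protein is known for. Summed over the small chain genes, FPKM ran from 28235 to 47612 in control, from 12587 to 27820 with nano-SiO2, from 25603 to 39415 with MT and from 28843 to 42950 with both sprays. The nano-SiO2 libraries, highest in Glyma.01G142400, were below all control libraries in this sum. Leaf mesophyll markers, a list that includes these small chain genes, summed to 51516 to 82334 FPKM in control and 32474 to 51151 with nano-SiO2. The marker sum and the small chain sum are therefore not separate, and the part of mesophyll in the result was not tested. Per 1000 FPKM of small chain mRNA, Glyma.01G142400 stood at 0.173 ± 0.0707 FPKM in control, 5.66 ± 3.53 with nano-SiO2, 0.982 ± 0.250 with MT and 1.16 ± 0.404 with both (SD, n = 3). The wide spread with nano-SiO2 comes with nano-SiO2 2, which had 12587 FPKM of small chain mRNA and 9.70 FPKM of Glyma.01G142400 per 1000.

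**Figure D3:**
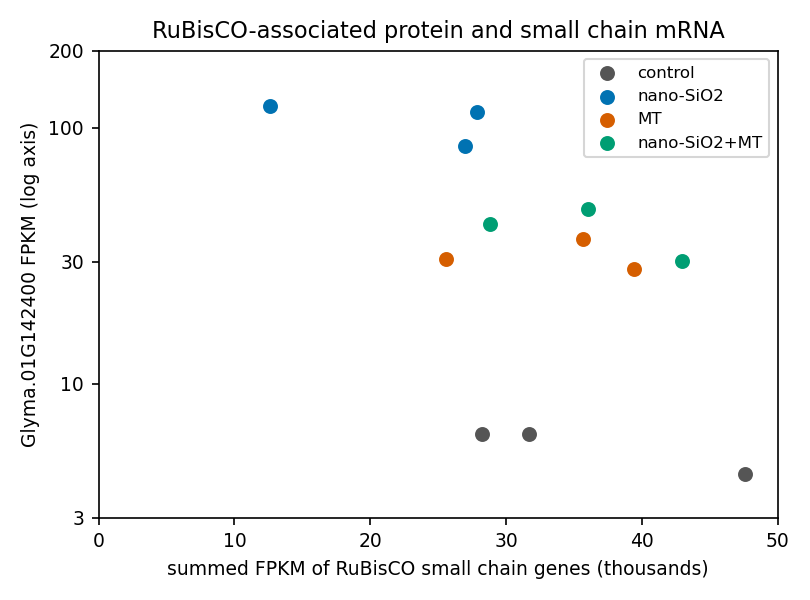
FPKM of Glyma.01G142400 (vertical, log axis) against the summed FPKM of RuBisCO small chain genes (horizontal, axis divided by 1000), 1 point per library, coloured by group. At close sums of 28235 and 27820 FPKM, control 3 has 6.38 FPKM of Glyma.01G142400 and nano-SiO2 1 has 115.

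The differences of single small chain genes did not pass the test. Glyma.19G046800, the most abundant, had 14161 ± 4076 FPKM in control and 8826 ± 3931 with nano-SiO2 (log2 difference -0.77, limma adjusted p = 0.449). Glyma.19G046600 had 12585 ± 3923 and 7715 ± 3007 FPKM (-0.75, limma adjusted p = 0.440). Of 24 tested genes for RuBisCO small chains, activase and assembly factors, 0 were called with nano-SiO2 and 5 had an unadjusted p under 0.05, where 0.492% of all tested genes were called in either direction. The median of the list was -0.07, against 0.10 over all genes.

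With MT, 2 of these 24 genes were called lower and 0 higher (1.69% of all genes were called lower). With both sprays 1 was called lower and 0 higher (0.637% of all genes), a call lost in 13 of 20 alternatives (adjusted p 0.0192 to 0.203) and under either scaling tried. Without the 4 libraries that stand apart, 2 genes were called higher and 3 lower in each of these comparisons, so the one-sided counts depend on those libraries. The genes called with all libraries encode subunits of the chaperonin that helps RuBisCO large chains fold. Other tested genes for these subunits were not called with MT, namely Glyma.01G069500 (log2 difference -0.033), Glyma.08G175900 (-0.621) and Glyma.12G078100 (-0.034). The beta subunit gene Glyma.15G250500 fell from 23.4 ± 0.652 to 13.2 ± 0.952 FPKM with MT (log2 difference -0.79, limma adjusted p = 0.00619) and stood at 23.6 ± 4.02 FPKM with nano-SiO2. The alpha subunit gene Glyma.11G195900 fell from 33.0 ± 2.83 to 21.4 ± 1.08 FPKM with MT (limma adjusted p = 0.0115), a call lost without MT 2 and under median-ratio scaling (highest adjusted p over the alternatives 0.0573). List medians with MT and with both sprays were -0.08 and -0.06, against -0.05 over all genes in either case, and the latter was 0.01 under median-ratio scaling.

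Genes of the chitinase list, found by words in the descriptions and not by sequence, were called in small numbers and in both directions. They need not all be sequence relatives of the family. Of 33 genes 14 were tested, and 1 was called higher with nano-SiO2 (0.389% of all tested genes were called higher and 0.103% lower). With MT 1 was higher (1.66% of all genes) and 1 lower. With both sprays 2 were higher (0.729% of all genes) and 1 lower. The lower call, Glyma.08G259200, was lost in 16 of 20 alternatives (adjusted p 0.0123 to 0.23), and 1 of the higher ones, Glyma.16G173000, in 10 of 19 (0.00908 to 0.147). The medians of the list were 0.13, -0.12 and -0.48, against 0.10, -0.05 and -0.05 over all genes. Without the 4 libraries that stand apart, the MT median was -0.47, with 0 called higher and 2 lower, and 0 were called with nano-SiO2.

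The endochitinase gene Glyma.01G160100 was at 5.57, 5.60 and 5.69 FPKM in control and at 10.3, 11.0 and 12.8 FPKM with nano-SiO2 (log2 difference 0.89, SE 0.14, limma adjusted p = 0.0120). The groups are free of overlap, but the call was lost without control 1, control 2 or control 3 (adjusted p 0.0596, 0.0687 and 0.0531) and without the 4 libraries that stand apart (0.118). Chitinase-like protein 1 (Glyma.08G259200), of a family known in other plants for roles in cell wall formation, stood at 102 ± 6.52 FPKM in control and 104 ± 3.38 with nano-SiO2. It fell to 57.5 ± 2.68 FPKM with MT (log2 difference -0.82, limma adjusted p = 0.00620). Xylem and secondary wall markers, 92 genes, summed to 178 to 295 FPKM in control, 220 to 489 with nano-SiO2, 72.2 to 103 with MT and 84.8 to 237 with both, and their part in these values was not tested.

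By the likeness used here, the genes closest to Glyma.01G142400 were storage protein genes. Likeness was the root mean square difference between profiles of log2(FPKM + 1) over the 12 libraries, each centred on its own mean, and it is a description with no test. The median tested gene differed from Glyma.01G142400 by 1.44, and the 10 closest by 0.67 to 0.94, with the next gene at 0.96. Glyma.01G142400 itself deviated from its own mean by 1.45, so a flat profile would lie about as far as the median gene. In first and second place were the vegetative storage protein genes Glyma.08G200100 (0.67) and Glyma.07G014500 (0.73), both described as stem 31 kDa glycoprotein. Glyma.08G200100 lay at 0.124 to 0.18 FPKM in control, where adding 1 compresses the profile, so its first place refers to this scale. Its means were 116-fold (nano-SiO2), 17.6-fold (MT) and 77-fold (both sprays) above control, against 18.7, 5.56 and 6.99-fold for Glyma.01G142400.

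Next came Glyma.02G156800 (0.76), a hypothetical protein, and then Glyma.02G018700 (0.79), described as hydroxyisourate hydrolase, an enzyme of the route from purines to ureides, the nitrogen transport compounds of soybean. It went from 3.08 ± 0.410 FPKM in control to 13.8 ± 1.39 with nano-SiO2, 9.76 ± 0.606 with MT and 9.78 ± 2.04 with both sprays. The nucleoside-triphosphatase gene Glyma.16G043400 (0.80), the lipoxygenase gene Glyma.13G347800 (0.85), the hypothetical proteins Glyma.06G170300, Glyma.03G223700 and Glyma.16G123400 (0.88, 0.91 and 0.94) and the acyl-protein thioesterase gene Glyma.13G363000 (0.94) completed the 10. By group means, 8 of the 10 had control below, and nano-SiO2 above, both groups with MT. That follows in large part from picking the 10 for likeness over these same libraries. Among all 28260 tested genes 1386 had this order. By Pearson correlation other genes ranked ahead of the storage protein genes, among them Glyma.02G018700 (r = 0.962) and Glyma.16G043400 (r = 0.935). Over the 12 libraries r was 0.919 for Glyma.07G014500 and 0.912 for Glyma.08G200100. Of the 10, 5 were also among the 10 closest by Pearson correlation and 5 with a pseudocount of 0.1.

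**Figure D4:**
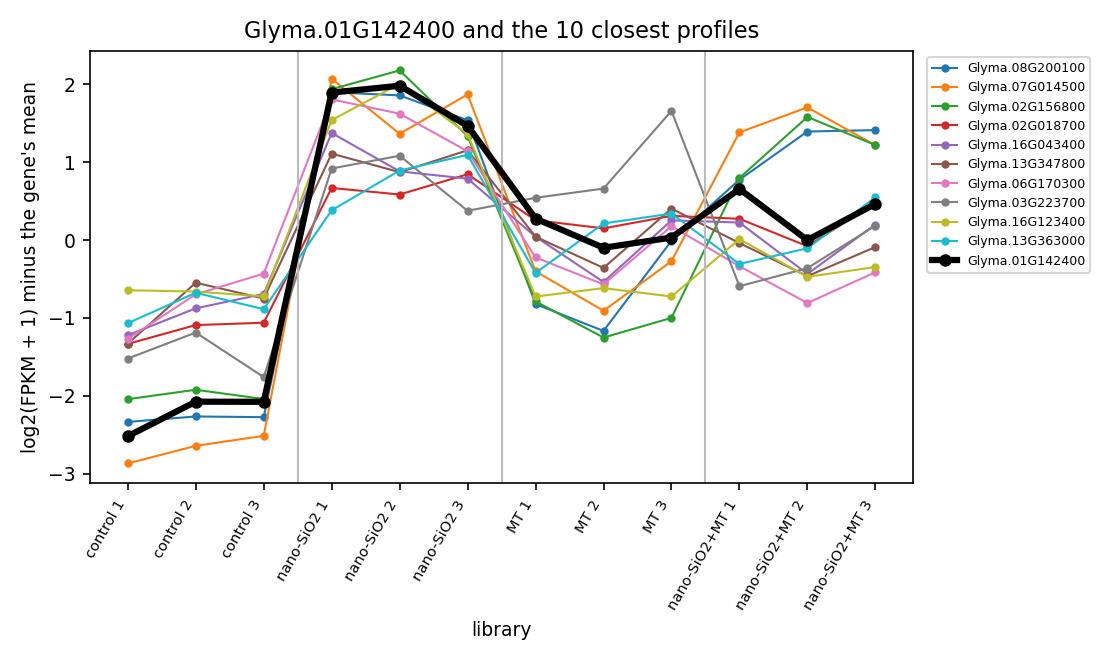
Values of log2(FPKM + 1) minus each gene's own mean (vertical) in the 12 libraries (horizontal) for Glyma.01G142400 (thick black line) and the 10 genes closest to it. All 11 lines are lowest in control or close to it, and Glyma.08G200100, Glyma.07G014500 and Glyma.02G156800 lie above Glyma.01G142400 in all 3 combined libraries.

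Both tested vegetative storage protein genes rose with each of the 3 sprays (2 of 2 tested, list medians 4.25, 1.89 and 3.8), where 0.389%, 1.66% and 0.729% of all genes were called higher. Their copies are close, so reads may be split between them. Glyma.08G200100 stood at 0.124 to 0.18 FPKM in control and at 15.5 to 20.2 FPKM with nano-SiO2. With MT it stood at 1.53 to 4.64 FPKM, and with both sprays at 8.71 to 14.1 FPKM. Only its sprayed libraries brought it past the filter, so its calls as higher than control are partly set by the filter. Glyma.07G014500 stood at 4.87, 5.86 and 6.5 FPKM in control, and at 179, 109 and 156 FPKM with nano-SiO2. With MT it stood at 31.5, 21.9 and 34.5 FPKM, and with both sprays at 111, 139 and 98.7 FPKM. Its nano-SiO2 and combined libraries overlap, and both groups lie above all MT libraries. In control and MT leaves its mean, 5.74 and 29.3 FPKM, was close to that of Glyma.01G142400, 5.73 and 31.9 FPKM.

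With both sprays Glyma.07G014500 kept 77.5% of its nano-SiO2 rise in FPKM, Glyma.08G200100 66.2% and Glyma.01G142400 33.8%. Whether these shares differ between the genes was not tested. Adding nano-SiO2 to MT raised both storage protein genes: by 1.96 for Glyma.07G014500 (SE 0.21, limma adjusted p = 0.000518) and by 1.86 for Glyma.08G200100 (limma adjusted p = 0.00415). This made 2 of 2 tested genes of the list, where 0.0672% of all genes were called higher. With the replicate number as a block in a fit of these groups alone, the adjusted p was 0.0209 for Glyma.07G014500 and 0.0281 for Glyma.08G200100. For Glyma.08G200100 the call was lost with only these groups in the fit and no block (adjusted p = 0.0777, range over the alternatives 0.000307 to 0.0777). The same step for Glyma.01G142400 measured 0.30. The remaining gene of the list, Glyma.07G014700, was below the filter. With no filter on low values, 3 genes of the list were called by limma with any spray against control, this gene among them. In that fit 0.203% of all genes were called with nano-SiO2, 1.62% with MT and 0.521% with both sprays.

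The interaction, the MT effect with nano-SiO2 minus the MT effect without it, was called lower for both storage protein genes (0.403% of all genes were called lower). It was -2.48 for Glyma.07G014500 (SE 0.30, limma adjusted p = 0.00105) and -2.20 for Glyma.08G200100 (limma adjusted p = 0.0123), beside the -3.70 measured for Glyma.01G142400. With Glyma.08G200100 at 0.124 to 0.18 FPKM in control, this scale understates its differences from control. Its -2.20 and the -3.70 thus cannot be compared in size. For Glyma.08G200100 the call was lost without the 4 libraries that stand apart (adjusted p = 0.0611, range over the alternatives 0.000831 to 0.0611). Both genes share all their libraries with Glyma.01G142400.

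Some lipoxygenase genes also rose with nano-SiO2. These enzymes oxidise linoleic and linolenic acid, and some soybean forms serve as storage proteins of leaf cells. Of 43 genes 22 were tested, and 6 were called higher and 0 lower with nano-SiO2 (16 did not pass, 10 of the 22 had an unadjusted p under 0.05), where 0.389% of all genes were called higher. The median was 0.57, against 0.10 over all genes. With MT and with both sprays 2 were called higher in each case (1.66% and 0.729% of all genes), with medians of 0.19 and 0.06. With any of the 3 sprays 7 of the 22 were called, against 3.9% of all genes. Without the 4 libraries that stand apart, 1 was called higher with nano-SiO2, with a median of 0.63. With MT 1 was then higher and 1 lower (median 0.02), and with both sprays 0 were higher and 1 lower (median -0.13).

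Glyma.13G347800 stood at 0.246, 1.14 and 0.863 FPKM in control and at 5.77, 4.74 and 5.97 FPKM with nano-SiO2 (log2 difference 1.92, SE 0.22, limma adjusted p = 0.00132). With MT it was at 2.23, 1.45 and 3.15 FPKM, and with both sprays at 2.05, 1.27 and 1.95 FPKM. The nano-SiO2 libraries lay above all others, as they did for Glyma.01G142400, and the MT and combined libraries overlapped. Its interaction was -2.15 (limma adjusted p = 0.00572), and this call and the nano-SiO2 call held in every alternative that tested the gene.

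The neighbouring gene Glyma.13G347700, described as linoleate 9S-lipoxygenase-4, had 42.1 ± 12.1 FPKM in control and 117 ± 18.8 with nano-SiO2 (log2 difference 1.49, limma adjusted p = 0.0285). Its call was lost without control 1, control 2 or any 1 of the nano-SiO2 libraries and with no filter (adjusted p up to 0.127, and 0.271 without the 4 libraries that stand apart). Glyma.20G144600, linoleate 9S-lipoxygenase 5, rose from 2.06 ± 0.549 to 6.42 ± 0.881 FPKM (limma adjusted p = 0.0120), a call lost without control 1, control 2 or nano-SiO2 1 (0.0709, 0.0593 and 0.0595) and without the 4 libraries that stand apart (0.153). The most abundant lipoxygenase genes were Glyma.12G054700, with 140 ± 8.94 FPKM in control and 138 ± 4.60 with nano-SiO2, and Glyma.15G026500. The latter had 122 ± 33.6 and 273 ± 36.7 FPKM and did not pass (limma adjusted p = 0.0766).

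Genes of seed storage proteins stayed low. Of 8 genes 1 was tested, the vicilin-like Glyma.12G223300, which had 5.42 ± 0.506 FPKM in control and 4.34 ± 1.02 with nano-SiO2 (limma adjusted p = 0.539). A legumin gene, Glyma.12G066900, reached 0.809 FPKM at most.

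**Figure D5:**
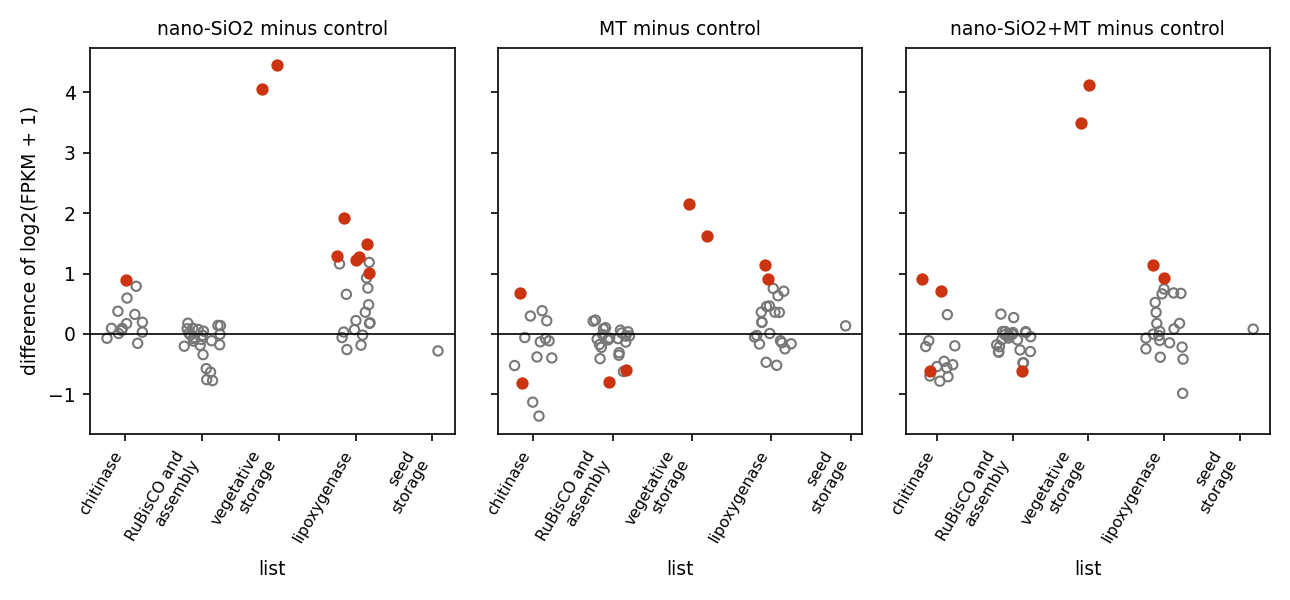
Differences of log2(FPKM + 1) against control (vertical) for the tested genes of 5 lists (horizontal), 1 panel for each spray. Filled points were called by limma at an adjusted p under 0.05 and open points were not. With nano-SiO2 the called points are the 2 storage protein genes, 6 lipoxygenase genes and 1 chitinase gene, all higher than control.

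Genes next to Glyma.01G142400 in the identifier numbering of chromosome 1 were not called. Of the 4 nearest on either side, 5 were tested and 0 were called by limma in any of the 7 comparisons, with 1 of 5 at an unadjusted p under 0.05 for nano-SiO2 against control, 2 for both sprays against nano-SiO2, 1 for the interaction and 0 for the other comparisons. Over all genes, calls in either direction made up 3.35% with MT and 1.37% with both sprays against control, 1.53% for both sprays against nano-SiO2, 0.294% for both sprays against MT, 3.16% for nano-SiO2 against MT and 0.524% for the interaction. The largest difference of any of them against control was 0.47 on the log2 scale, and none exceeded 6.69 FPKM in any library. The nearest lower number, Glyma.01G142300, described both as a hypothetical protein and as a probable protein S-acyltransferase, had 2.03 ± 0.154 FPKM in control and 3.04 ± 0.691 with nano-SiO2 (log2 difference 0.40, limma adjusted p = 0.303).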

How the data were processed

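Deposited were FPKM values, 1 for each gene in each library, as the authors made them. Which aligner, quantifier and strand setting they used is not stated in the labels or headers. DESeq2 (version 1.34.0) and R (version 4.1.2) appear in the submitters' processing notes. The p-value and q-value columns of the authors' deposited table name no comparison and were not used. Libraries were made from polyadenylated RNA, per the labels' protocols, and all carry 1 batch label.

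Values were transformed to log2(FPKM + 1). Genes reaching 1 FPKM in 3 or more libraries, 28260 in all, entered 1 limma model of the 4 groups (limma version 3.58.1, R version 4.3.3, eBayes with trend and robust settings). Tests were two-sided with Benjamini-Hochberg adjustment over all tested genes and called under 0.05. The workflow was tested on simulated data. Differences on this scale understate those of low genes. Relative depth came from comparing the low values of libraries, and absolute depth is unknown.

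The genes and lists were chosen with earlier results of these data known. Lists are searches of the descriptions. Named are all genes of the family, the 10 closest profiles, the 2 most abundant and up to 3 called genes with the largest difference against control in each list, and 4 identifier neighbours on each side. Of the identifiers 0 matched the RefSeq table of Glycine_max_v4.0, so no coordinates or sequences are given. Same-numbered libraries deviated together in all 3 pairs of MT and nano-SiO2+MT (correlation 0.141 to 0.384) but not in all pairs of any other 2 groups; this comes from the data, as the labels give no pairing. Alternatives changed the pseudocount, filter, scaling, samples and replicate block.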

Additional observations from a re-analysis of the deposited data

Results flagged for a closer look

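For Glyma.01G142400, the MT effect had opposite directions without and with nano-SiO2: every MT library lay above every control library, and every combined library lay below every nano-SiO2 library. The difference between these effects was -3.70 on the log2(FPKM + 1) scale and was not tested, because the gene was chosen for its pattern. The effect of MT also differed with and without nano-SiO2 for 3 genes of the compared lists, by limma's test of the interaction: the storage protein genes Glyma.07G014500 (-2.48) and Glyma.08G200100 (-2.20) and the lipoxygenase gene Glyma.13G347800 (-2.15). In control Glyma.08G200100 stood at 0.124 to 0.18 FPKM, where this scale understates differences, so its value is not comparable in size with -3.70. For each of these 3 genes the mean was higher with MT than in control and lower with both sprays than with nano-SiO2 alone. The latter difference was not called for Glyma.07G014500 (-0.33, limma adjusted p = 0.394) or Glyma.08G200100 (-0.57, limma adjusted p = 0.258). It was called for Glyma.13G347800 (-1.24, limma adjusted p = 0.0185), a call lost in 5 of 19 alternatives. The call of Glyma.13G347800 with MT against control was lost in 12 of 19.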

How the results depend on the processing

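The differences of Glyma.01G142400 kept their direction under every alternative run, and leaving out 1 library gave 3.86 to 4.16 (nano-SiO2), 2.15 to 2.38 (MT) and 2.45 to 2.78 (both) against control. Of 2219 alternative values of the named genes, 2041 kept direction and call, 162 lost a call, 16 gained one and 0 reversed. The 2219 include comparisons not called in the main fit, which had no call to lose. The 162 therefore make up a larger share of the alternatives of called comparisons. With no filter on low values 9 other family members were tested.

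Counts of called genes over the whole table moved more. In the order nano-SiO2, MT and both sprays against control, they were 139, 948 and 386. Leaving out the 4 libraries that stand apart, an alternative chosen after seeing the data, gave 29, 3116 and 1952, with 33 for both sprays against MT and 94 for the interaction (83 and 148 in full). A mean of at least 5 FPKM gave 69 for nano-SiO2 and 603 for MT against control, 273 for both sprays against nano-SiO2, 40 for both against MT, 446 for nano-SiO2 against MT and 82 for the interaction. No filter gave 239 for both sprays against control, 229 against nano-SiO2 and 521 for nano-SiO2 against MT. Only the 2 groups compared gave 115 for both sprays against nano-SiO2, 53 against MT and 364 for nano-SiO2 against MT. Leaving out 1 library gave 43 to 173, 350 to 1098 and 60 to 470 against control, 103 to 535 for both sprays against nano-SiO2, 34 to 98 against MT, 227 to 977 for nano-SiO2 against MT and 88 to 213 for the interaction. The cause was not tested.

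Genes called with any spray numbered 2 for RuBisCO and its assembly (6 without the libraries that stand apart, 1 under median-ratio scaling, 1 to 3 leaving out 1 library). For lipoxygenases they numbered 7 (4 without the libraries that stand apart, 4 with a mean of at least 5 FPKM, 4 with no filter, 2 to 8 leaving out 1 library), and for chitinases 4 (1 to 5). Of the 10 closest profiles, 5 were shared with a pseudocount of 0.1, 6 with a mean of at least 5 FPKM, 5 by Pearson correlation and 6 to 10 leaving out 1 library. Median-ratio scaling moved the median of all genes from -0.15 (both sprays against nano-SiO2) and 0.14 (nano-SiO2 against MT) to about 0.

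Over the 18 pairs of same-numbered libraries the correlation of deviations ran from -0.34 to 0.527, with 9 over 0.1. Of 12 libraries, 6 correlated best with their own number. Only MT and nano-SiO2+MT had all 3 pairs over 0.1 (highest 0.384). Single pairs of control with MT (0.527) and control with nano-SiO2+MT (0.485) were higher, so these values do not settle whether the numbers pair libraries. In a fit of MT and nano-SiO2+MT alone, chosen after seeing the data, the replicate block gave 103 called genes, against 83 in the fit of all groups. It kept the calls of both storage protein genes. A replicate block over all groups gave 789 called genes for both sprays against nano-SiO2 (432 without) and 1578 for nano-SiO2 against MT (893 without). Absolute depth is unknown, which limits what values under 1 FPKM can show.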

Other observations

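Gene ontology annotation gave 57 genes the term for chitinase activity, a set chosen after its values were seen, and 25 of them were tested. By mean FPKM over the 12 libraries, 4 lay above Glyma.01G142400 (46.2 FPKM). These were the rhodanese-like domain genes Glyma.16G026200 (111 FPKM) and Glyma.07G057200 (91.2 FPKM), the chitinase-like gene Glyma.08G259200 (82.8 FPKM) and the putative chitinase gene Glyma.18G283400 (79.8 FPKM).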
